A study of Mus musculus with 6 samples.

Results

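The genes described here make, convert or carry amino acids: 21 enzymes of serine, folate-linked one-carbon, asparagine, proline, glutamine, branched-chain and cysteine metabolism, and 11 amino acid transporter genes of the plasma membrane. They were taken by symbol from a list of 32 genes, and all 32 had a row among the 18518 gene symbols of the table. RNA was sequenced from E14Tg2A, a mouse embryonic stem cell line, with 3 libraries from wild-type cells (WT) and 3 from cells in which Bach1 had been disrupted with CRISPR/Cas9 (BACH1-KO). Both genotypes were kept for 2 days in serum medium with a supplement of non-essential amino acids, β-mercaptoethanol and 200 units/ml of leukemia inhibitory factor (LIF), the cytokine that holds mouse embryonic stem cells in self-renewal. The knockout cells came from puromycin-selected cells sorted as single-cell clones, and the labels do not say whether the 3 knockout libraries are from 1 clone or several, nor that any library is a separate culture. The spread that the p-values measure is that between these libraries, and it may be only technical. All values come from bulk RNA, in which fewer cells of a type and less RNA per cell cannot be told apart.

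Cells build serine from a glycolytic intermediate in 3 steps, pass its side-chain carbon to folate in the cytosol or the mitochondrion for nucleotide synthesis, and make asparagine, proline, alanine and glutamine from the skeletons of aspartate and glutamate. Many genes of these routes are known targets of ATF4, a transcription factor whose translation rises when amino acids run short or when eIF2α is phosphorylated for other reasons. ATF4 binds with C/EBP partners to an element called the C/EBP-ATF response element (CARE). BACH1 binds heme and is known as a repressor of antioxidant genes such as Hmox1.

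Levels are given as FPKM, in which fragment counts are divided by transcript length and by the library's mapped fragments, so that genes can be compared per length. Bach1 itself, on the plus strand at chr16:87698945-87733346, was at 7.97, 8.39 and 8.47 FPKM in WT and 10.5, 10.4 and 10.4 FPKM in knockout, and its transcript level does not check whether the coding sequence was edited. Each WT library listed 16047 to 16159 genes above 0, and each knockout library 17276 to 17455. The stem cell markers Pou5f1, at 1102 to 1431 FPKM, and Nanog, at 295 to 316 FPKM, were high in all 6 libraries. Of 10 such markers 8 fell, Tdgf1 the most (from 1129.7 ± 72.0 to 242 ± 6.82 FPKM), and 2 rose, where 39.7% of all tested genes fell and 37.3% rose, and their summed level lay between 10692 and 11473 FPKM (WT) and between 7003 and 7256 FPKM (knockout). Of 10 endoderm markers 5 were tested, and 3 fell, Sparc among them (from 92.5 ± 3.46 to 48.9 ± 1.32 FPKM), and 2 did not pass, while Sox17, Foxa2 and Afp were at or near 0 in every library. Of 13 fibroblast markers 4 were tested. Of these 3 fell, Vim among them (from 186 ± 9.31 to 54.9 ± 1.35 FPKM), and Fn1 rose. The untested fibroblast markers were low and went both ways. Col6a2 (from 0.245 ± 0.0689 to 1.24 ± 0.0763 FPKM) and Dcn (from 0.0664 ± 0.0806 to 0.764 ± 0.0944 FPKM) were higher in knockout. Col1a2, Col3a1, Lum and Postn, at or near 0, were also higher, and Col1a1, Pdgfra and S100a4 were lower. The summed levels were 110.0 to 116 FPKM (endoderm) and 252 to 269 FPKM (fibroblast) in WT and 62.1 to 64.9 and 126 to 131 FPKM in knockout. Vim and Fn1 held most of the fibroblast sum in both genotypes. Hepatocyte markers were higher in knockout: 25 of the 26 were tested and all 25 rose, but 23 of these averaged under 1 FPKM in WT and passed the filter on low values through knockout only, so that they could only rise. Their summed level went from between 11.4 and 22.0 to between 1201 and 1236 FPKM, and Alb, the albumin gene, stood at 0.0738, 0.701 and 1.39 FPKM in WT and 461, 471 and 471 FPKM in knockout. Cyp3a11 and Tdo2 were listed at 0 in every WT library, and none of the hepatocyte markers was at 0 in knockout. Among the genes described here Shmt1, Glul, Got1, Cbs and Cth are also abundant in liver, and their directions differed: the first 3 fell, Cbs did not pass the test and Cth rose (grouped after the values were seen). The part of these transcripts in the results that follow was not tested.

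Most amino acid genes on the list were higher in the knockout cells, and the largest changes were all rises. A gene is said to have risen or fallen when its limma adjusted p over all 12187 tested genes was under 0.05, and log2 fold changes are knockout minus WT, of FPKM + 1 (a pseudocount that understates changes of low genes). Of the 32 genes 21 rose (65.6%), 9 fell (28.1%) and 2, Cbs and Slc38a2, did not pass, while among all tested genes 37.3% rose and 39.7% fell. The median log2 fold change was 0.71 over the 32 genes and -0.01 over all tested genes. At least a doubling was reached by 12 of the 32 (37.5%) against 7.84% of tested genes, and at least a halving by 0 of the 32 against 4.00%. The 12 were Pck2, Slc1a4, Slc6a9, Cth, Aldh18a1, Gpt2, Mthfd2, Pycr1, Slc1a5, Asns, Psph and Bcat1, with log2 fold changes from 1.08 to 2.99 and adjusted p values from 7.38e-09 to 3.15e-06. All knockout libraries lay on one side of all WT libraries for 30 of the 32 genes, a separation also seen for 79.3% of tested genes. Slc6a9 averaged under 1 FPKM in WT and passed the filter on low values through its knockout level only, and without it 20 of 31 rose and 11 doubled.

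Because 77.0% of all tested genes passed the threshold, the size of a change is given beside each call. Tested against a fold change of 1.5, 17 of the 32 were still higher, where 10.9% of tested genes were, and 1, Mthfd1, was still lower, where 8.16% were. The 12 whose calls ended under that test were Phgdh, Shmt1, Shmt2, Mthfd1l, Mthfd2l, Got1, Got2, Glul, Bcat2, Slc7a3, Slc7a6 and Slc7a7. The 9 falls had log2 fold changes from -0.77 to -0.10, and the 9 rises short of a doubling from 0.32 to 0.86.

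**Figure D1:**
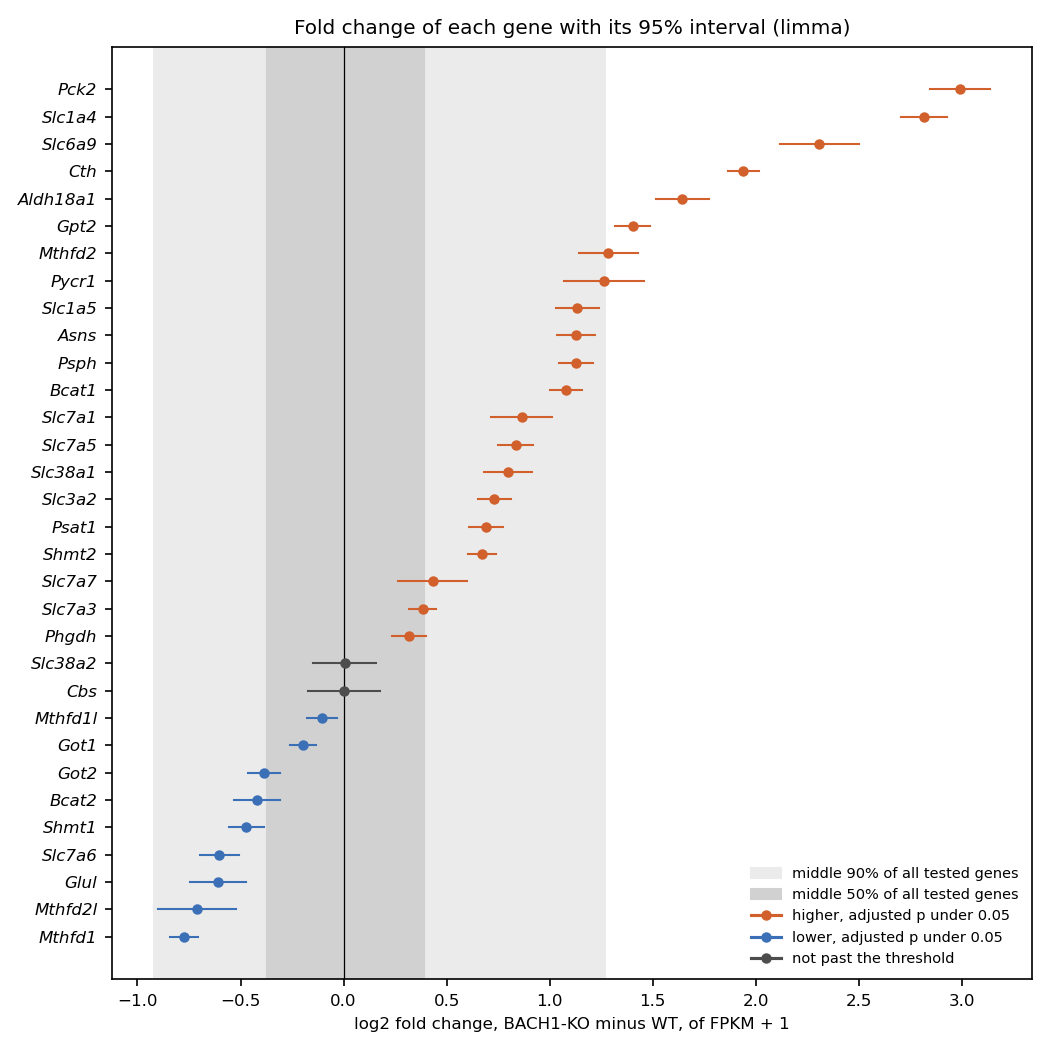
Log2 fold change of each of the 32 genes (BACH1-KO minus WT, of FPKM + 1) with its 95% interval from limma, over grey bands for the middle 50% and 90% of all 12187 tested genes. Pck2, Slc1a4, Slc6a9, Cth, Aldh18a1 and Gpt2 lie to the right of the wider band, and the 9 genes that fell all lie inside it.

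The promoters of several of these genes hold the letters of the ATF4 element, and each site found is printed below. RefSeq promoter windows (GRCm38.p6, the assembly behind mm10, 250 bases before to 50 after each start) were found by symbol for 27 of the 32 genes. There was no entry for Cth, Slc1a5, Slc7a3, Slc7a5 and Slc38a1. The core TGATGNAA, shared by known CAREs, was searched on both strands. It occurred in 6 of the 27 genes (22.2%) against 4.51% of the 27025 genes of the promoter table, which include genes not tested here. A gene counted when any of its windows matched. The 27 genes had 38 windows and the 27025 genes 32851, so the 27 had somewhat more windows per gene. It was in 4 of the 10 genes with a window that at least doubled (Pck2, Slc1a4, Pycr1 and Asns), in Slc7a7, which rose by less, and in Got1, which fell slightly. The other genes with a window that at least doubled, Slc6a9, Aldh18a1, Gpt2, Mthfd2, Psph and Bcat1, held no match. The core TGANTCAGC of the element bound by BACH1 and NRF2 was in 0 of the 27 genes and in 1.37% of all genes. With no match, it overlapped none of the CARE matches, and its absence says only that these letters are not in these windows.

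Each site is printed 5′ to 3′ along the gene, with the match in capitals, and reads as the reverse complement where the core lies on the other strand.
Asns, chr6:7693214-7693243, minus strand, match beginning 23 bases before the RefSeq start: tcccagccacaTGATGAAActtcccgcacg
Slc1a4, chr11:20332699-20332728, minus strand, match beginning 4 bases before the start and running across it: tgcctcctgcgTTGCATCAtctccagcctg
Pck2, chr14:55540117-55540216, plus strand, match beginning 103 bases before the start: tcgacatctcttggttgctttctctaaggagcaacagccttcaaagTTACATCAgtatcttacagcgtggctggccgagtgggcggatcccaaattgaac
Pycr1, chr11:120643798-120643897, minus strand, match beginning 103 bases before the start: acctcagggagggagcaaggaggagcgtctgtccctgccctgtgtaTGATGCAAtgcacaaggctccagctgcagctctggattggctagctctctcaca
Slc7a7, chr14:54418032-54418131, minus strand, match beginning 141 bases before 1 of its starts: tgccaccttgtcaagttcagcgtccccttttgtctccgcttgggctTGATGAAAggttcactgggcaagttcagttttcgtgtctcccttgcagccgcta
Slc7a7, chr14:54417927-54417956, minus strand, match beginning 1 base before the same start: gacctagaagcTGATGCAAcagcttccccg
Got1, chr19:43524654-43524753, minus strand, match beginning 102 bases before the start: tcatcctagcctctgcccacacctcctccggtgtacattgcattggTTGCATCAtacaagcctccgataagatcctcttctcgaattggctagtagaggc
The Asns match lies inside an annotated GENCODE exon, since the GENCODE gene begins further upstream than the RefSeq start, and the Slc1a4 match also touches one. A match is a description of the letters, not a bound site.

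The 3 enzymes of serine synthesis all rose, and the last of them rose most. Phgdh (chr3:98313170-98339990, minus strand), the first and committed step, was at 156, 167 and 165 FPKM in WT and 198, 207 and 202 FPKM in knockout. The groups did not overlap, and the log2 fold change was 0.32 (SE 0.04). Psat1 (chr19:15904678-15947337, minus strand), the aminotransferase of the second step, was at 166, 180.1 and 177 FPKM in WT and 279.7, 281 and 285 FPKM in knockout, with a log2 fold change of 0.69 (SE 0.04). Psph (chr5:129765558-129787449, minus strand), the phosphatase that releases serine, was at 54.9, 53.7 and 58.0 FPKM in WT and 121, 124 and 122 FPKM in knockout. All 3 knockout libraries were more than 2 times above every WT library for Psph, and its log2 fold change was 1.13 (SE 0.04). Up to 452 bases of a Psph exon overlap an exon of Cct6a on the opposite strand, and the labels do not say whether the counting used strand. Cct6a went from a mean of 428 to 304 FPKM, opposite to Psph.

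In the one-carbon cycle the mitochondrial enzymes Shmt2 and Mthfd2 rose, and the cytosolic enzymes Shmt1 and Mthfd1 fell. Mthfd2 (chr6:83305691-83325908, minus strand), the mitochondrial methylenetetrahydrofolate dehydrogenase and cyclohydrolase, was at 39.6, 41.6 and 35.0 FPKM in WT and 99.0, 94.2 and 93.5 FPKM in knockout. The lowest knockout library was above 2 times the highest WT library, with a log2 fold change of 1.28 (SE 0.06). Shmt2 (chr10:127517123-127522444, minus strand), which moves the carbon of serine to folate in the mitochondrion, was at 101, 98.1 and 103 FPKM in WT and 160.1, 160.1 and 163 FPKM in knockout. Its log2 fold change was 0.67 (SE 0.03). Shmt1 (chr11:60788104-60811718, minus strand), the cytosolic counterpart, was at 144, 139 and 144 FPKM in WT and 97.9, 104 and 105 FPKM in knockout, a log2 fold change of -0.47 (SE 0.04). Mthfd1 (chr12:76255298-76319803, plus strand), the cytosolic enzyme with 3 activities, was at 116, 115 and 118 FPKM in WT and 68.2, 67.5 and 66.8 FPKM in knockout. It was 1.72 times lower in knockout, the largest fall among the 32 genes in log2(FPKM + 1), with a log2 fold change of -0.77 (SE 0.03).

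Not every mitochondrial folate enzyme followed. Mthfd1l, the mitochondrial formate-producing synthetase, was at 39.0, 38.7 and 38.9 FPKM in WT and 35.6, 36.5 and 36.2 FPKM in knockout, close together but without overlap. Its log2 fold change of -0.10 (SE 0.03), adjusted p = 0.0162 by limma, lost its call without the first knockout library (adjusted p = 0.0547) and under quantile normalization (adjusted p = 0.170). Mthfd2l, the paralog of Mthfd2 typical of adult tissue, was far lower than Mthfd2 in both genotypes, at 2.38, 2.45 and 2.36 FPKM in WT and 1.07, 1.24 and 0.921 FPKM in knockout. The fall was 2.22 times by the ratio of means, which in log2(FPKM + 1) is -0.71, and with a pseudocount of 0.1 it was a halving (log2 fold change -1.09). Exons of Shmt1 and Shmt2 overlap opposite-strand exons of Smcr8 (up to 184 bases) and Ndufa4l2 (up to 32 bases). Smcr8 went from a mean of 4.94 to 11.5 FPKM and Ndufa4l2 from 75.5 to 61.2 FPKM, each opposite to its neighbour.

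**Figure D2:**
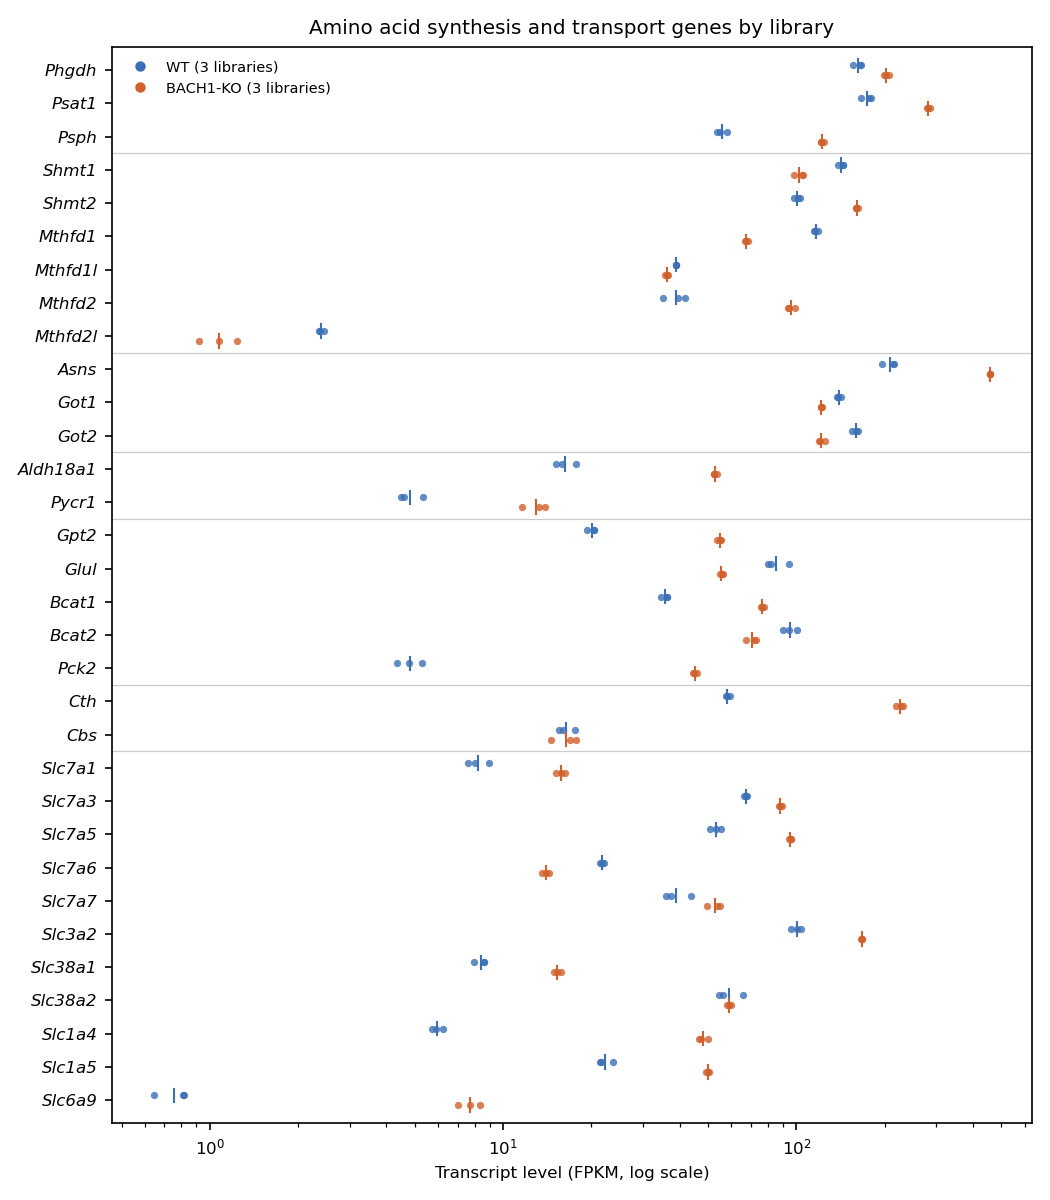
Level of each gene in each library (FPKM, log scale), WT in blue and BACH1-KO in orange, with vertical ticks at the means and lines between the role groups. The libraries of a genotype lie close together, Cbs and Slc38a2 overlap between genotypes, and Pck2, Slc1a4 and Slc6a9 are the most widely separated.

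Ratios of a mitochondrial to a cytosolic enzyme within each library do not depend on how the libraries were scaled, and 5 such pairs were compared. The Shmt2 to Shmt1 ratio was 0.703, 0.707 and 0.714 in WT and 1.63, 1.54 and 1.55 in knockout, so that the more abundant transcript of the pair changed from the cytosolic to the mitochondrial one. The Mthfd2 to Mthfd1 ratio was 0.341, 0.363 and 0.296 in WT and 1.45, 1.40 and 1.40 in knockout, 4.24 times higher by the means and again crossing 1. Mthfd1l to Mthfd1 went from 0.335 ± 0.00462 to 0.535 ± 0.0112 (SD, n = 3), although Mthfd1l itself was slightly lower, since Mthfd1 fell more. The aminotransferase pairs moved the other way. Got2 to Got1 was 1.18, 1.15 and 1.09 in WT and 0.988, 0.983 and 1.03 in knockout, a small difference without overlap. Bcat2 to Bcat1 went from 2.66 ± 0.0918 to 0.922 ± 0.0503, 2.88 times lower. Each pair gave p = 0.1 in the exact two-sided permutation test (0.1 after Benjamini-Hochberg adjustment over the 5), the smallest that 3 against 3 libraries allow. The genes of each pair lie on different chromosomes.

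**Figure D3:**
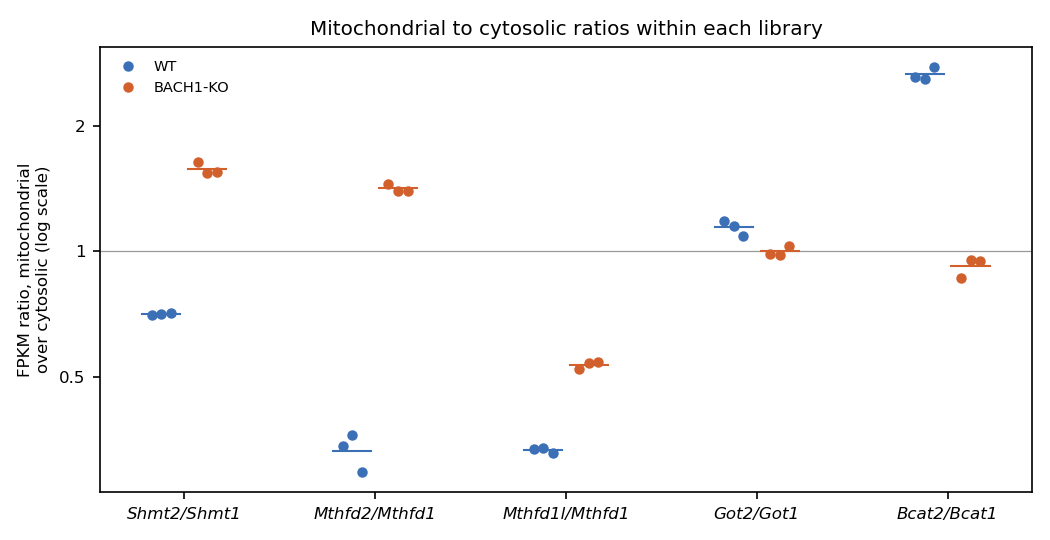
Ratio of FPKM, mitochondrial over cytosolic enzyme, in each library (log scale, points) with the group means (bars), for 5 pairs; the grey line marks equal levels. Shmt2/Shmt1 and Mthfd2/Mthfd1 cross the line from below in knockout, Bcat2/Bcat1 crosses it from above, and Got2/Got1 moves least.

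Asparagine synthetase was the most abundant transcript of the 32 in both genotypes and more than doubled. Asns (chr6:7675169-7693254, minus strand), which makes asparagine from aspartate and glutamine and whose promoter site is shown above, was at 196, 215 and 214 FPKM in WT and 456, 456 and 458 FPKM in knockout. The 3 knockout values were within 3 FPKM of each other, and the first WT library was the lowest of its group. The log2 fold change was 1.13 (SE 0.04). The aspartate aminotransferases, which make the aspartate it uses, both fell. Got2, the mitochondrial form, was at 163, 160.1 and 155 FPKM in WT and 119, 119.9 and 125 FPKM in knockout, a log2 fold change of -0.39. Got1, the cytosolic form, was at 137, 139 and 142 FPKM in WT and 121, 122 and 121 FPKM in knockout, a log2 fold change of -0.20 whose call was lost under quantile normalization (adjusted p = 0.240 by limma).

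Both proline synthesis genes rose at least 2-fold from low to moderate levels. Aldh18a1 (chr19:40550257-40588463, minus strand), which encodes the synthase that opens the route from glutamate, was at 17.7, 15.1 and 15.9 FPKM in WT and 52.4, 53.5 and 52.3 FPKM in knockout, 3.25 times higher by the means. Pycr1 (chr11:120635712-120643769, minus strand), a mitochondrial reductase of the last step, was at 4.48, 4.59 and 5.32 FPKM in WT and 11.6, 13.9 and 13.3 FPKM in knockout. Its log2 fold change was 1.26 (SE 0.08), with the first knockout library the lowest of its group and still above 2 times the highest WT value.

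Pck2 rose more in log2(FPKM + 1) than any other of the 32 genes. Pck2 (chr14:55540266-55551242, plus strand), the mitochondrial phosphoenolpyruvate carboxykinase, can feed carbon from oxaloacetate back towards serine. It was at 4.33, 4.77 and 5.30 FPKM in WT and 44.6, 45.9 and 44.5 FPKM in knockout. The values did not come near each other, the ratio of means was 9.37 and the log2 fold change 2.99 (SE 0.06). Gpt2 (chr8:85492576-85527560, plus strand), the mitochondrial alanine aminotransferase, was at 20.5, 20.4 and 19.4 FPKM in WT and 55.3, 53.7 and 55.1 FPKM in knockout, a log2 fold change of 1.40 (SE 0.04). Its cytosolic relative Gpt (named after its values were seen) was low, at 1.87, 1.97 and 1.88 FPKM in WT and 3.82, 3.54 and 3.33 FPKM in knockout, and also rose.

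Glutamine synthetase fell, and the branched-chain aminotransferases changed their order. Glul was at 94.3, 82.1 and 79.8 FPKM in WT and 55.6, 54.9 and 56.0 FPKM in knockout, with the first WT library the highest and a log2 fold change of -0.61 (SE 0.06). Bcat1 (chr6:144993835-145076184, minus strand), the cytosolic enzyme that starts the breakdown of leucine, isoleucine and valine and is the form typical of embryonic and proliferating cells, was at 34.5, 36.3 and 36.3 FPKM in WT and 77.6, 76.2 and 75.8 FPKM in knockout. It rose by a log2 fold change of 1.08 (SE 0.03). Bcat2, the mitochondrial form found in most adult tissues, was at 90.1, 94.1 and 100.1 FPKM in WT and 67.1, 72.7 and 71.9 FPKM in knockout and fell, with a log2 fold change of -0.42. In WT every library had more Bcat2 than Bcat1, and in knockout every library had slightly more Bcat1.

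The 2 enzymes of transsulfuration, which makes cysteine from homocysteine, differed. Cth (chr3:157894248-157925077, minus strand), the lyase that releases cysteine, was at 59.3, 57.4 and 57.9 FPKM in WT and 219, 231 and 228 FPKM in knockout. The ratio of means was 3.88, the log2 fold change 1.94 (SE 0.03) and the adjusted p 7.38e-09, the smallest of the 32 by limma. Cbs, the synthase of the step before it, was at 15.5, 16.0 and 17.5 FPKM in WT and 14.6, 17.7 and 17.0 FPKM in knockout. The groups overlapped throughout, and the log2 fold change was 0.00 with a 95% interval of -0.17 to 0.18.

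Of the 11 transporter genes 9 rose (81.8%, where 37.3% of all tested genes did), 1 fell (where 39.7% did) and 1 did not pass. The neutral amino acid exchangers of the SLC1 family, which carry serine, alanine, threonine and in the case of Slc1a5 glutamine, both at least doubled. Slc1a4 (chr11:20302180-20332713, minus strand) was at 6.24, 5.70 and 5.92 FPKM in WT and 46.6, 47.2 and 50.04 FPKM in knockout, with a ratio of means of 8.05 and a log2 fold change of 2.81 (SE 0.05). Slc1a5 (chr7:16781340-16798274, plus strand) was at 21.4, 21.5 and 23.6 FPKM in WT and 49.1, 50.4 and 49.9 FPKM in knockout, with a log2 fold change of 1.13 (SE 0.05). Slc1a4 was therefore several times below Slc1a5 in WT and level with it in knockout.

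Slc6a9, which encodes the glycine transporter GLYT1, had the lowest WT level of the 32. The gene (chr4:117834506-117875198, plus strand) was at 0.818, 0.644 and 0.810 FPKM in WT and 7.72, 7.04 and 8.35 FPKM in knockout, so that every WT library was under 1 FPKM and every knockout library above 7 FPKM. The ratio of means was 10.2 and the log2 fold change 2.31 (SE 0.08), which understates that ratio because the WT level is below the pseudocount. Up to 1258 bases of a Slc6a9 exon overlap an exon of Ccdc24 on the opposite strand, and Ccdc24 went from a mean of 1.44 to 0.870 FPKM, opposite to Slc6a9. B4galt2 overlaps it by up to 46 bases and went from 3.24 to 5.59 FPKM, in the same direction.

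The heavy chain gene and the most abundant of 3 light chain genes of the heteromeric exchangers both rose. Slc3a2 (chr19:8706882-8723369, minus strand) encodes the heavy chain CD98, which pairs with light chains and brings them to the membrane, and was at 95.8, 101 and 104 FPKM in WT and 166, 167 and 168 FPKM in knockout. Its log2 fold change was 0.73 (SE 0.04). Slc7a5 (chr8:121881150-121907694, minus strand), the LAT1 light chain that exchanges large neutral amino acids such as leucine, was at 55.2, 53.0 and 50.8 FPKM in WT and 94.6, 95.4 and 95.6 FPKM in knockout, a log2 fold change of 0.83 (SE 0.04). The light chains of the y+L type, which exchange cationic for neutral amino acids, split. Slc7a7 was at 43.6, 37.3 and 35.9 FPKM in WT and 53.7, 49.7 and 54.8 FPKM in knockout and rose by a log2 fold change of 0.43 (SE 0.07), with the first WT library well above the other WT libraries. Slc7a6 was at 21.7, 21.4 and 22.1 FPKM in WT and 13.5, 14.3 and 14.0 FPKM in knockout and fell, with a log2 fold change of -0.60 (SE 0.04). Up to 232 bases of a Slc7a7 exon overlap an exon of Oxa1l on the opposite strand, and Oxa1l went from a mean of 54.5 to 33.0 FPKM, opposite to Slc7a7.

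Both cationic amino acid transporters on the list rose, the less abundant one more. Slc7a1, the widely expressed arginine and lysine carrier CAT1, was at 8.96, 8.02 and 7.61 FPKM in WT and 15.1, 15.8 and 16.3 FPKM in knockout, a log2 fold change of 0.86 (SE 0.06). Slc7a3, which encodes CAT3 and is the more abundant in these cells, was at 67.8, 67.5 and 66.3 FPKM in WT and 88.9, 87.5 and 87.5 FPKM in knockout, a log2 fold change of 0.38 (SE 0.03). The sodium-coupled system A carriers of small neutral amino acids differed. Slc38a1 was at 8.61, 8.57 and 7.94 FPKM in WT and 14.9, 15.2 and 15.7 FPKM in knockout, a log2 fold change of 0.80 (SE 0.05). Slc38a2, a well-known gene of the amino acid response, was at 65.9, 56.2 and 54.6 FPKM in WT and 59.9, 59.0 and 57.9 FPKM in knockout. The first WT library lay above all 3 knockout libraries for Slc38a2 and the other WT libraries below all 3, and the log2 fold change was 0.01 with a 95% interval of -0.15 to 0.16. Without the first WT library the log2 fold change of Slc38a2 was 0.09 with an adjusted p of 0.0442 by limma.

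Summed over the 32 genes, these transcripts held 0.258% ± 0.00258 of the summed FPKM in WT and 0.392% ± 0.00396 in knockout (SD, n = 3), 1.52 times more. The 2 transsulfuration genes went from 0.00935% to 0.0317% and the 2 proline genes from 0.00264% to 0.00859%, both over 3 times. The 11 transporters went from 0.0483% to 0.0801% and serine synthesis from 0.0492% to 0.0794%. The 6 one-carbon genes moved least, from 0.0551% ± 0.00114 to 0.0607% ± 0.000344, with the rises of Shmt2 and Mthfd2 set against the falls of Shmt1 and Mthfd1. All 3 knockout libraries were above all 3 WT libraries in each of the 7 role groups (exact two-sided permutation p = 0.1 each, the smallest possible). Outside the one-carbon genes, Got1, Got2, Glul, Bcat2 and Slc7a6 fell although the sum of their group rose. In the asparagine and aspartate group only Asns rose.

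**Figure D4:**
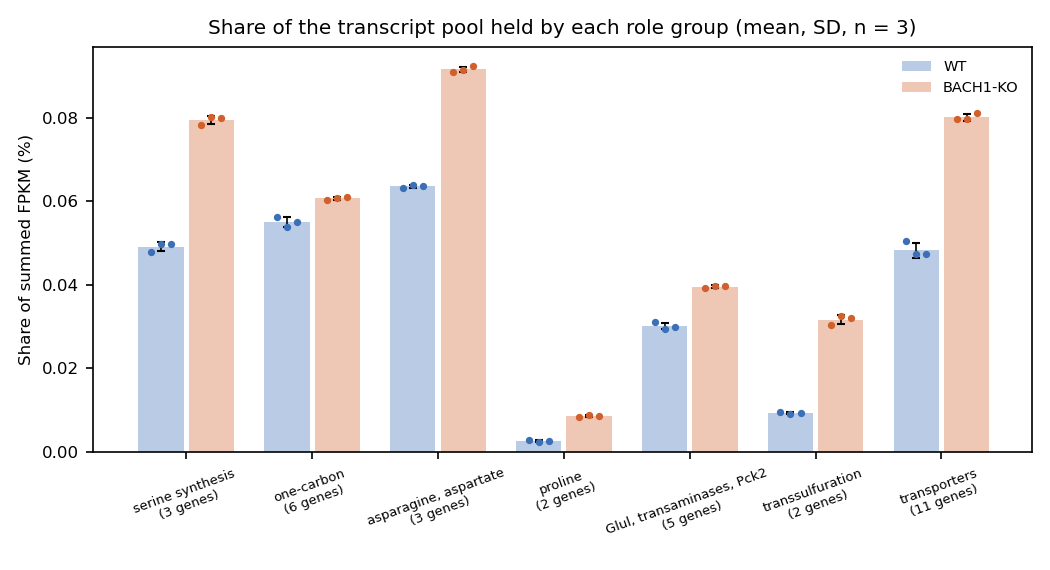
Share of the summed FPKM of a library (%) held by each role group, as bars for the mean, whiskers for the SD (n = 3) and points for the libraries. All 7 groups are higher in BACH1-KO, the one-carbon group by the least.

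Further enzymes of amino acid metabolism rose and fell in shares close to those of all tested genes. Of 48 further enzymes of amino acid, folate and urea cycle metabolism 43 were tested, and 16 rose (37.2%), 17 fell (39.5%) and 10 did not pass, where 37.3% of all tested genes rose and 39.7% fell, and the median log2 fold change was -0.06. The largest rises included Bhmt, Arg1 and Cps1, which are genes typical of hepatocytes. Bhmt stood at 0.145, 0.263 and 0.205 FPKM in WT and 15.6, 17.6 and 15.3 FPKM in knockout and Arg1 at 0.0550, 0.0993 and 0.0517 FPKM in WT and 6.67, 6.43 and 7.72 FPKM in knockout. These 3 passed the filter through their knockout level only, and they rose beside the hepatocyte markers given above. The largest falls were Tdh, threonine dehydrogenase, from 445 ± 11.9 to 97.3 ± 0.811 FPKM, and Gcsh, Ahcy and Gldc, of glycine cleavage and the methionine cycle. Gcsh went from 267 ± 13.3 to 156 ± 0.927 FPKM, Ahcy from 84.3 ± 0.889 to 50.1 ± 0.3996 FPKM and Gldc from 75.4 ± 1.59 to 47.9 ± 1.04 FPKM.

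Of 48 further amino acid transporters of the plasma membrane, lysosome and mitochondrion 27 were tested, and 7 rose (25.9%), 14 fell (51.9%) and 6 did not pass, against the same shares over all genes, with a median log2 fold change of -0.10. Slc38a7, a lysosomal glutamine and asparagine carrier, was the 1 that doubled, from 8.96 ± 0.496 to 24.9 ± 1.53 FPKM. Slc43a1 rose from 4.84 ± 0.351 to 8.51 ± 0.483 FPKM, Slc38a3 from 5.08 ± 0.210 to 7.90 ± 0.171 FPKM and Slc36a4 from 0.855 ± 0.0692 to 1.64 ± 0.390 FPKM. Slc36a4 averaged under 1 FPKM in WT and passed the filter on low values through knockout only. Slc38a5, which fell, was 1 of 2 genes of this list that averaged under 1 FPKM in knockout and passed through WT only. Slc38a10 fell from 32.6 ± 0.148 to 14.7 ± 0.859 FPKM, Slc38a5 from 1.88 ± 0.492 to 0.601 ± 0.249 FPKM, the taurine transporter gene Slc6a6 from 38.3 ± 0.681 to 21.3 ± 0.578 FPKM and the mitochondrial aspartate and glutamate carrier gene Slc25a12 from 22.4 ± 0.884 to 13.1 ± 0.822 FPKM. Slc7a11, the cystine light chain and a known ATF4 and NRF2 target (named after its values were seen), averaged under 1 FPKM over the 6 libraries and was not tested, at 0.0927, 0.207 and 0.208 FPKM in WT and 0.995, 0.989 and 0.859 FPKM in knockout.

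Among regulators and markers of the amino acid response Atf4 and several of its known targets rose. Of 34 such genes 32 had a row and were tested, and 20 rose (62.5%, where 37.3% of all tested genes did), 8 fell (where 39.7% did) and 4 did not pass. The median log2 fold change was 0.86, and 14 at least doubled (43.8%, where 7.84% did). Atf3 and Vldlr averaged under 1 FPKM in WT and passed the filter through knockout only. Atf4 was at 98.0, 91.0 and 86.3 FPKM in WT and 432, 409.7 and 416 FPKM in knockout, a log2 fold change of 2.18 (SE 0.05). Its partners and targets Chac1, Nupr1, Atf3 and Trib3 rose most, Nupr1 from 17.0 ± 0.887 to 317 ± 13.2 FPKM and Trib3 from 7.70 ± 0.254 to 46.1 ± 0.271 FPKM. The genes of the kinases that phosphorylate eIF2α did not rise: Eif2ak4, which encodes the amino acid sensor GCN2, was at 6.44, 6.13 and 6.90 FPKM in WT and 5.90, 5.40 and 5.63 FPKM in knockout and fell slightly, Eif2ak1 and Eif2ak2 fell more, and Eif2ak3 did not pass (the kinases other than Eif2ak2 named after their values were seen). The largest falls were Myc, from 12.4 ± 3.96 to 1.44 ± 0.319 FPKM, Sesn1, from 30.3 ± 1.42 to 16.2 ± 0.945 FPKM, Eif2ak2, from 6.72 ± 1.10 to 3.48 ± 0.111 FPKM, and Eif2s1, from 156 ± 1.81 to 122 ± 2.61 FPKM. These lists and the 32 genes were chosen with earlier results on these libraries known, so their counts are descriptions.

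**Figure D5:**
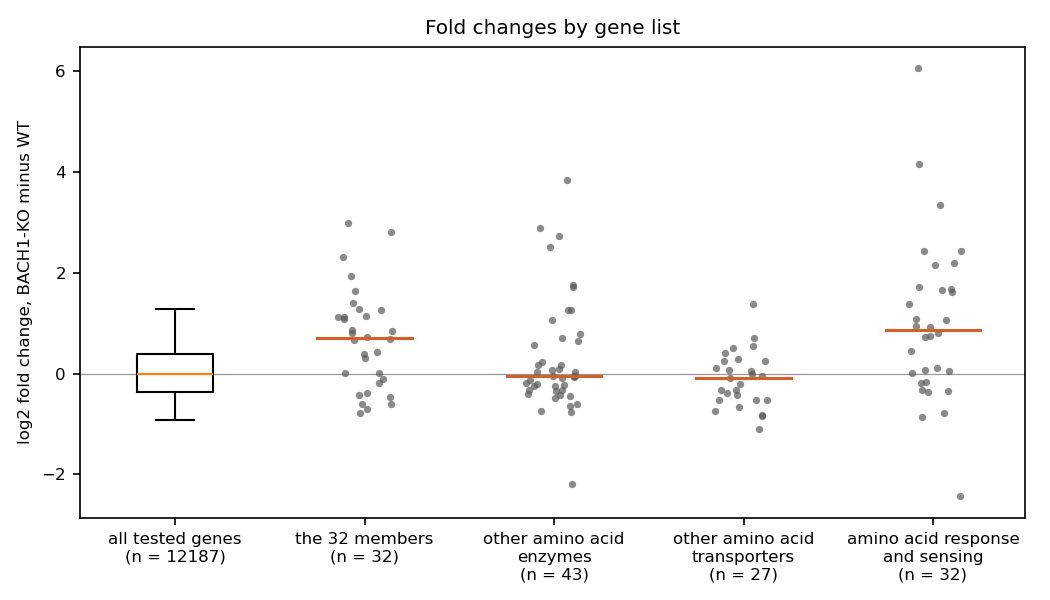
Log2 fold changes (BACH1-KO minus WT) by list: a box for all 12187 tested genes (median, quartiles, whiskers at the 5th and 95th percentile) and a point per tested gene for each list, with a bar at the median. The medians of the 32 genes (0.71) and of the amino acid response list (0.86) lie above 0, and those of the other enzymes (-0.06) and other transporters (-0.10) close to it.

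The 32 genes lie on 15 chromosomes, and the 3 on chromosome 6, Asns, Mthfd2 and Bcat1, all at least doubled. Genes of chromosome 6 as a whole were higher in knockout. Their median log2 fold change was 0.31, against medians from -0.13 to 0.09 on the other chromosomes. Of its 541 tested genes 59.3% rose, where 37.3% of all tested genes did, and 13.9% at least doubled, where 7.84% did. The doubled share was also high on chromosomes 12 (13.1%) and X (12.5%). The part of the chromosome 6 shift in the rises of Asns, Mthfd2 and Bcat1 was not tested. Among the 29 genes on other chromosomes 18 rose, 9 fell and 9 at least doubled, where 37.3%, 39.7% and 7.84% of all tested genes did.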

How the data were processed

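RNA sequencing libraries were made with a TruSeq kit from Trizol RNA, per the labels' protocols. The authors deposited 1 table of FPKM values per gene symbol for 6 libraries, made with Cufflinks on build mm10, per the submitters' processing notes. The aligner, its version, the annotation and the strand setting were not given in the sources used here. Columns name the genotype but no sample title, so each was used as an unpaired replicate of its group. Rows with a number in place of a symbol (23, 0.0987% of the FPKM) were left out. No counts were used. Low values, which step by whole fragments, gave relative depths of 1.00 to 1.18, and the absolute depth is unknown.

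Log2(FPKM + 1) was fitted, for genes averaging 1 FPKM or more over the 6 libraries, with limma 3.58.1 in R 4.3.3 (eBayes with trend, two-sided, Benjamini-Hochberg over 12187 genes), a procedure tested on simulated data. SE and 95% intervals are the moderated ones. Ratios and shares were compared with exact permutation tests. Gene positions and exon overlaps are from GENCODE M21 (mm10). All 32 genes are accounted for, those at least doubled in full. Further genes are up to 4 per list and direction with the largest change, of which 1 is not reported here. The genes and lists were chosen with earlier results of these data known.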

Additional observations from a re-analysis of the deposited data

How the results depend on the processing

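The 32 genes were refitted under 13 alternatives, 414 values in all, of which 398 kept their side of the threshold, 15 lost their call and 1 gained one. None of the called values changed sign, while Cbs and Slc38a2, uncalled and close to 0, changed sign under several alternatives. With a test against a fold change of 1.5, 12 of the 32 lost their call. The other 3 losses were Mthfd1l and Got1 after quantile normalization and Mthfd1l without the first knockout library, and Slc38a2 gained a call without the first WT library. With a filter at 5 FPKM, 30 of the 32 could be fitted. The count of the 32 that halved became 1 with a pseudocount of 0.1, and the count that fell became 1 against a fold change of 1.5. Leaving out each library in turn kept the counts over the 32 genes within 1.5 times.

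Over all tested genes, 2942 of 8613 rose and 466 doubled with a filter at 5 FPKM, and 1325 of 12187 rose and 994 fell against a fold change of 1.5. Of the other enzymes 8 rose with a filter at 5 FPKM, among fewer genes tested. Against a fold change of 1.5, 9 of the 43 rose and 3 fell. Of the other transporters 18 of 48 rose with no filter, where 6580 of all 18518 genes did, beside 7 of 27 in the main fit. With a filter at 5 FPKM, 4 rose, among fewer genes tested. After quantile normalization 4 rose, and against a fold change of 1.5 1 rose and 2 fell. Of the 32 tested amino acid response genes 2 fell against a fold change of 1.5. The cause of the change under quantile normalization was not tested. Ratios and shares kept their direction in 104 of 104 recalculations. Leaving out the genes on chromosome 6, or those whose exons overlap another gene of at least 1 FPKM (17 of 27 rose, 10 doubled), were alternatives chosen after seeing the data.

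No paired analysis was possible because the titles give no replicate number, and the numbers in the column names can neither be tied to titles nor be shown to pair WT with knockout libraries. With 3 libraries a group, an exact test of a single value cannot go below 0.1. FPKM are shares of a library, and no depth is known, so small differences at low levels such as those of Mthfd2l and Slc6a9 have no counting interval.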

Other observations

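Proportions between genes that work together also differed between the genotypes (chosen after the values were seen, exact two-sided permutation p = 0.1 each, the smallest possible). Psph per Phgdh was 0.353, 0.322 and 0.352 in WT and 0.612, 0.6001 and 0.603 in knockout, so that the last enzyme of serine synthesis came closer to the first. Slc7a5 held 0.467 ± 0.00841 of the summed FPKM of the light chain genes Slc7a5, Slc7a6 and Slc7a7 in WT and 0.588 ± 0.00908 in knockout. The heavy chain gene Slc3a2 stood to that sum at 0.884 ± 0.0808 in WT and 1.03 ± 0.0135 in knockout, and the third WT library, at 0.954, was the closest to the knockout values. Slc1a5 per Slc1a4 was 3.73 ± 0.285 in WT and 1.04 ± 0.0372 in knockout, and Cth per Cbs 3.57 ± 0.256 and 13.8 ± 1.03 (SD, n = 3).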
